A study of Mus musculus with 6 samples.

Results

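The subunits of the transcription factor NF-κB and the regulators that act back on it were followed through the arrays of SAP-deficient and wild-type (WT) mouse T cells. The 10 genes were taken by name (Rel, Rela, Relb, Nfkb2, Nfkbia, Nfkbie, Nfkbid, Nfkbiz, Bcl3 and Tnfaip3), out of 18193 genes measured. They are covered by 19 of the 45037 probe sets tested: 5 genes by a single probe set and 5 by several, in which case the probe set with the highest mean stands for the gene. SAP-deficient and WT cells were both CD4 T cells carrying the OT-II T cell receptor transgene, specific for an ovalbumin peptide, from spleen and lymph nodes, with 3 arrays for each genotype. SAP is the adaptor protein encoded by Sh2d1a that passes on signals from SLAM-family receptors. Naive cells of either genotype were sorted and grown for 3.5 days with the peptide and with mitomycin C-treated splenocytes depleted of T cells. To steer the cells towards follicular helper T (Tfh) cells, IL-6 was added at 100 ng/ml and IL-21 at 50 ng/ml, with antibodies that block TGF-β (20 µg/ml), IL-4 (10 µg/ml), IL-12 and IFN-γ. The labels give no ages, do not say how the SAP-deficient line was made, and leave unsaid whether the 3 arrays stand for different mice or cultures. The p-values therefore speak of the spread among these 6 arrays alone, which may be technical. In such bulk RNA, fewer cells of a type and less RNA per cell cannot be told apart.

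NF-κB acts as dimers of Rel-family proteins. Rel (c-Rel), Rela and Relb carry the domain that activates transcription, and Nfkb2 encodes a precursor that holds Relb in the cytoplasm until it is processed in the non-canonical pathway. The IκB proteins of Nfkbia and Nfkbie keep dimers in the cytoplasm until the IKK kinase marks them for degradation, a step that the T cell receptor and CD28 can trigger. The atypical IκB proteins of Nfkbid, Nfkbiz and Bcl3 work in the nucleus on dimers bound to DNA, and Tnfaip3 encodes A20, an enzyme that edits ubiquitin chains upstream of IKK. Several of these genes, Nfkbia and Tnfaip3 among them, are known targets of NF-κB, which closes a feedback loop. In T cells SAP has been connected with this pathway through the kinases Fyn and PKC-θ.

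Promoter sequence is printed here for the gene that differed most between arrays (Nfkbid), for a subunit that shared its pattern (Rel), and for the 2 best known feedback genes (Nfkbia and Tnfaip3). Each stretch holds the 250 bases before the RefSeq start of the gene (build GRCm38.p6), 5′ to 3′ on the strand of the gene, and ends at the base before the start. Capitals mark matches to the κB consensus on either strand, with overlapping matches joined. The regions are chr11:23770970-23771219 on the minus strand for Rel, chr7:30421481-30421730 on the plus strand for Nfkbid, chr12:55492648-55492897 on the minus strand for Nfkbia and chr10:19015411-19015660 on the minus strand for Tnfaip3.
Rel: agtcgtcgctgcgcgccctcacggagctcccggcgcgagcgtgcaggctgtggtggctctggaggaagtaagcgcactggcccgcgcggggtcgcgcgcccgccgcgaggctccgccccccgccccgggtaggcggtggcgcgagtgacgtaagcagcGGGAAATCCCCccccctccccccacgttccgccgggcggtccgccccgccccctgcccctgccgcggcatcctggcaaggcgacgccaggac
Nfkbid: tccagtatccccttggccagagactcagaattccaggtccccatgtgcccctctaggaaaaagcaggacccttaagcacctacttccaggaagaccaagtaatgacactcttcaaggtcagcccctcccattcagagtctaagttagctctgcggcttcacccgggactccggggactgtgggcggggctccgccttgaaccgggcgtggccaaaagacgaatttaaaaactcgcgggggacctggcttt
Nfkbia: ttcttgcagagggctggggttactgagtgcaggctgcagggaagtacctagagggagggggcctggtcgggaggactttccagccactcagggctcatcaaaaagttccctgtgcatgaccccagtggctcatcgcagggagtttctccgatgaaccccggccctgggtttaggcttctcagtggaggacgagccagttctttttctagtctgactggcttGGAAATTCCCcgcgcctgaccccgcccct
Tnfaip3: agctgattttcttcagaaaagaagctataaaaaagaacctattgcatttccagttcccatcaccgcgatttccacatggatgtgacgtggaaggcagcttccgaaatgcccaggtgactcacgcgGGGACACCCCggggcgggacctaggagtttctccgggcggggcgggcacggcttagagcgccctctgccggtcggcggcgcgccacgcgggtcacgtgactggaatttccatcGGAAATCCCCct

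Of the 10 genes, 8 have at least 1 window in the RefSeq promoter table, 13 windows in all, and 6 have the κB consensus in at least 1 of them. Counted by window, 8 of the 13 hold it, and 4 of the 5 at the outermost start of a gene. Of all 32851 promoter windows of the same length, 7.25% do. The genes were taken as NF-κB subunits and feedback regulators, with known targets among them, so this comparison is no test. Windows of 1 gene are not separate either: Nfkb2 gives 3 of the 8, and 2 of its windows overlap. The match in Nfkbia begins 29 bases before the start and that in Rel 92 bases before it, while Tnfaip3 has matches that begin 125 and 12 bases before it. In Nfkbie (chr17:45555450-45555699, plus strand) a match begins 106 bases before the start. The outermost window of Nfkbid holds none, but a window at a start further downstream holds 2, and Nfkb2 has matches in all 3 of its windows. The windows of Rela and Bcl3 hold none. Of the 5 windows at the outermost start of a gene, 2 hold the AP-1 motif TGANTCA on either strand (6.75% of all windows) and 4 the NFAT core GGAAA on either strand (55.6%), a core that some κB matches contain. These are matches of letters, with no binding measured.

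The targeted gene followed the labels. Sh2d1a was at 5.47, 4.10 and 4.92 in SAP-deficient arrays, against 9.50, 8.52 and 9.39 in WT arrays (log2 RMA levels; difference -4.31 ± 0.37, SE; limma adjusted p = 0.0501). Arrays varied in a way that crossed the genotypes. Without the probe sets of NF-κB pathway genes, each SAP-deficient array still resembled 1 WT array most, which gave pairs 1, 2 and 3 with the arrays numbered 1, 2 and 3 of both genotypes in the order of their accessions. Once each genotype's mean was removed, and over probe sets that the matching had not used, Pearson's r was 0.54, 0.73 and 0.60 in pairs 1, 2 and 3. For any other combination of a SAP-deficient and a WT array it was -0.13 or lower. Removing the means makes the values of 1 array against all arrays of the other genotype offset each other. Negative values outside the pairs thus follow in part from that step. The labels state no such pairing, so it is a feature of the data, and values are given both overall and within the pairs. CD4 T cell markers were clearly present, with mean levels from 9.63 to 12.93 for 8 genes, Cd3d and Cd2 the brightest. Among 6 Tfh markers, mean levels ran from 5.81 (Cxcr5) to 12.32 (Cd200), against a median of 5.75 over all probe-set means, with Cd200 and Il21 the brightest. All 6 were lower on average in SAP-deficient cells (median difference -0.16), where 53.3% of all genes were higher. With the pairs as a block, 3 of them (Pdcd1, Il21 and Cd200) had an unadjusted p under 0.05 (limma), and none was called. Of all genes, 2.61% were lower at that mark. The part of these Tfh marker differences in the values of the NF-κB genes was not tested.

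None of the 10 NF-κB subunit and feedback genes was called as different between the genotypes, on genotype alone or with the matched pairs as a block. On genotype alone, where the error takes in the spread between pairs, limma called 0 of the 10 genes at an adjusted p under 0.05. It called 0 of all genes (0%), and 0 of the 10 had an unadjusted p under 0.05, against 1.31% of all genes. This fit did not call the targeted gene Sh2d1a either, so the lack of calls alone says little about changes of moderate size. Of the 10, 8 were higher on average in SAP-deficient cells, where 53.3% of all genes were, with a median difference of 0.07 (all genes, 0.01). The differences ran from -0.03 (Nfkbid) to 0.26 (Bcl3) on the log2 scale, and 7 of the 10 were smaller than 0.1 in size. In none did all SAP-deficient arrays lie above all WT arrays or all below, which was the case for 2.38% and 2.94% of all genes. The plot of levels by array shows each gene.

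**Figure D1:**
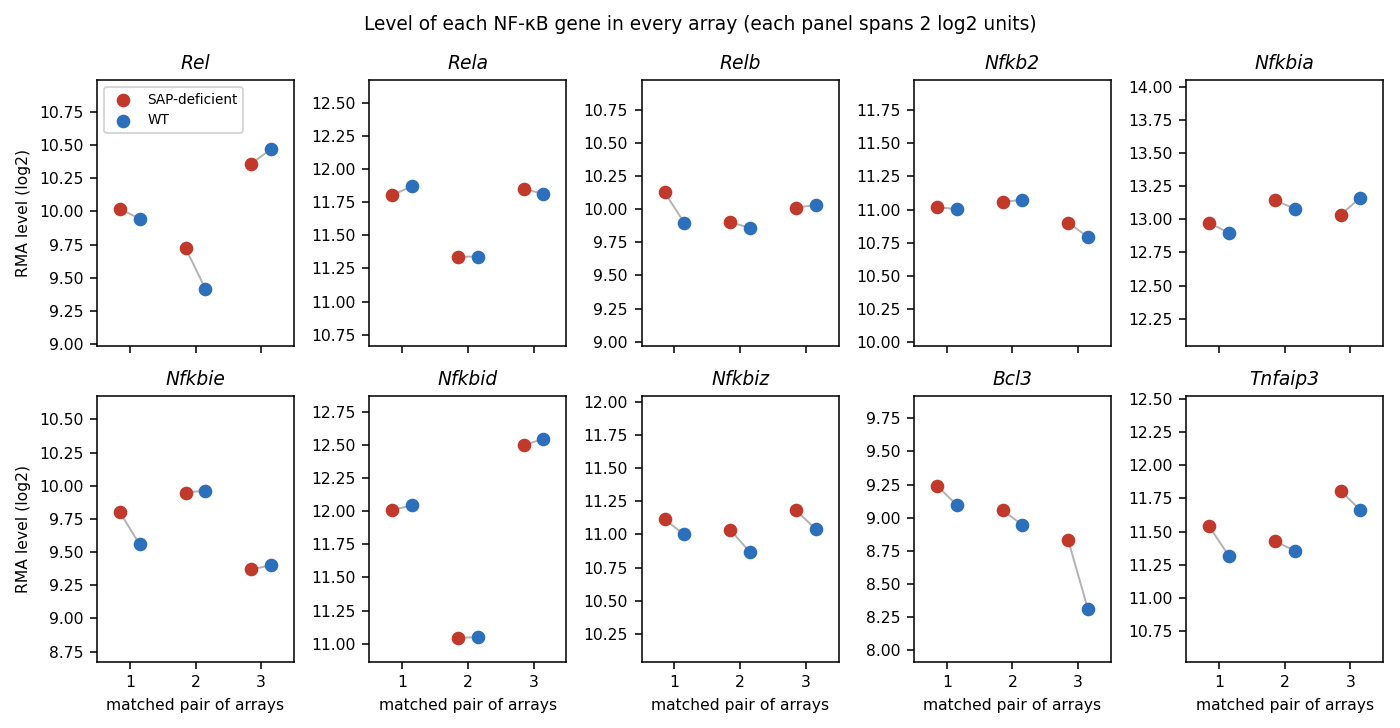
RMA level (log2) of the 10 NF-κB genes in every array, by the probe set that stands for the gene; red points are SAP-deficient and blue points WT arrays, joined within the 3 matched pairs, and each panel spans 2 log2 units. Nfkbid moves by 1.47 between pairs and by at most 0.05 within them, and Nfkbiz, Bcl3 and Tnfaip3 have the SAP-deficient array higher in every pair.

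Among the subunits, Rel, the c-Rel protein's gene and the subunit most tied to lymphocyte activation, was at 10.02, 9.72 and 10.36 in SAP-deficient arrays, against 9.94, 9.42 and 10.47 in WT arrays. The groups overlapped, the second array of each genotype being the lowest and the third the highest. The difference was 0.09 ± 0.27 (SE; 95% interval -0.52 to 0.70), and within the matched pairs it was 0.07, 0.30 and -0.11. Rela, the gene of the most widely used activating subunit, was at 11.80, 11.34 and 11.85 in SAP-deficient arrays, against 11.87, 11.34 and 11.81 in WT arrays. Here the genotypes coincided array by array, with the second array of each some 0.5 log2 units under the others, and the difference was -0.01 ± 0.18 (-0.41 to 0.40). Relb, the non-canonical partner of the Nfkb2 product, was at 10.13, 9.90 and 10.01 in SAP-deficient arrays, against 9.90, 9.86 and 10.03 in WT arrays. Its arrays lay close together in both genotypes, and the difference of 0.08 ± 0.11 (-0.16 to 0.33) came mostly from pair 1, where it was 0.23, against 0.04 and -0.02 in pairs 2 and 3. Nfkb2 was at 11.02, 11.06 and 10.90 in SAP-deficient arrays, against 11.00, 11.07 and 10.79 in WT arrays. It differed by 0.04 ± 0.10 (-0.19 to 0.26), with the third array of each genotype the lowest. Its second probe set, 1429128_x_at, of a kind that can bind other transcripts as well, gave 0.05 ± 0.15.

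The cytoplasmic inhibitors had no called difference either. All probe sets of both genes were higher on average in SAP-deficient cells, by 0.00 to 0.18, where 51.3% of all probe sets were higher. Nfkbia, encoding IκBα, was at 12.97, 13.14 and 13.03 in SAP-deficient arrays, against 12.90, 13.08 and 13.16 in WT arrays, by the brightest of its 5 probe sets. The groups overlapped fully and the difference was 0.00 ± 0.08 (-0.17 to 0.18), one of the narrowest intervals among the 10 genes. The other 4 Nfkbia probe sets gave 0.04, 0.06, 0.15 and 0.18. One of them, 1448306_at, was at 12.54, 12.52 and 12.58 in SAP-deficient arrays, against 12.31, 12.48 and 12.42 in WT arrays. It was the 1 of 19 probe sets in which all SAP-deficient arrays lay above all WT arrays (2.56% of all probe sets), with a difference of 0.15 ± 0.06 (0.01 to 0.29) and a limma adjusted p of 1.00 over probe sets. All SAP-deficient arrays lay below all WT arrays in none of the 19 (3.13%). It was also the only one of the 19 with an unadjusted p under 0.05, where 1.64% of all probe sets passed. The 1420089_at probe set rested on 1 array: it was at 9.53, 9.50 and 9.58 in SAP-deficient arrays, against 8.84, 9.58 and 9.65 in WT arrays, and differed by 0.69 in pair 1 and by -0.08 and -0.07 in pairs 2 and 3. Nfkbie, encoding IκBε, was at 9.80, 9.95 and 9.37 in SAP-deficient arrays, against 9.56, 9.96 and 9.40 in WT arrays. It was highest in the second and lowest in the third array of both genotypes, opposite to Rel, and differed by 0.07 ± 0.19 (-0.38 to 0.51). Its further probe set, 1431843_a_at, gave 0.10 ± 0.20.

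Of the nuclear IκB genes, Nfkbid, whose product IκBNS is needed for c-Rel-dependent gene activation in T cells, varied most between arrays and least between genotypes. It was at 12.01, 11.04 and 12.50 in SAP-deficient arrays, against 12.04, 11.05 and 12.54 in WT arrays. The matched arrays were nearly equal, with differences of -0.04, -0.01 and -0.05, whereas the pair means spanned 1.47 log2 units, a 2.78-fold range. Over all arrays the difference was -0.03 ± 0.44 (-1.04 to 0.97), an interval of about 2-fold in both directions, since the error of this fit takes in the spread between pairs. Nfkbiz, encoding IκBζ, was at 11.11, 11.04 and 11.18 in SAP-deficient arrays, against 11.00, 10.87 and 11.04 in WT arrays. Every matched pair had the SAP-deficient array higher, by 0.11, 0.17 and 0.14, although the groups touched (difference 0.14 ± 0.08, -0.05 to 0.34). Its probe set 1448728_a_at was also higher in each pair, by 0.30, 0.27 and 0.20, while 1457404_at was at 0.13, 0.17 and -0.07. Bcl3, whose product joins dimers of the DNA-binding subunits that lack an activating domain, was at 9.24, 9.06 and 8.83 in SAP-deficient arrays, against 9.10, 8.95 and 8.31 in WT arrays. It was higher in every matched pair, by 0.15, 0.11 and 0.52, and the third WT array stood lowest. The difference of 0.26 ± 0.22 (-0.24 to 0.75), or 1.20-fold, was 0.02 without WT replicate 3, and was 0.13 in the blocked fit without pair 3.

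Tnfaip3, encoding the ubiquitin-editing brake A20, was at 11.54, 11.43 and 11.81 in SAP-deficient arrays, against 11.32, 11.36 and 11.66 in WT arrays. All pairs had the SAP-deficient array higher, by 0.22, 0.07 and 0.15, with the third array of each genotype the highest (difference 0.15 ± 0.13, -0.15 to 0.44). The further probe set, 1450829_at, was at 0.24, 0.01 and 0.24 within the pairs.

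With the matched pairs as a block, a fit chosen because of the likeness of arrays, the picture of the 10 genes was 3 genes with an unadjusted p under 0.05, all higher in SAP-deficient cells: Nfkbiz (0.14, 95% interval 0.03 to 0.25), Tnfaip3 (0.15, 0.04 to 0.26) and Bcl3 (0.26, 0.05 to 0.46). Among all genes 6.1% passed this mark, 3.49% as higher and 2.61% as lower. None of the 10 was called after adjustment over all genes (0.0055% of all genes, which is Sh2d1a alone), the limma adjusted p being 0.757 for Nfkbiz, 0.735 for Tnfaip3 and 0.775 for Bcl3. These were also the 3 of 10 genes that were higher in SAP-deficient cells in all 3 pairs (15.6% of all genes), and 1 of 10, Nfkbid, was lower in all 3 (13.1%). The other 7 genes had adjusted p-values from 0.886 to 0.993 in this fit (limma). The interval of Nfkbid narrowed in it to -0.13 to 0.06 and that of Rela to -0.11 to 0.09. Per probe set, 17 of 19 were higher on average (51.3% of all probe sets), 6 were higher in all pairs (14.1%) and 5 had an unadjusted blocked p under 0.05 (5.69%; 3.16% as higher and 2.53% as lower), with none called (0.00222%). Probe sets of the same gene measure the same transcripts in part and are not separate evidence. All 9 B cell markers and all 6 MHC class II genes measured were lower on average in SAP-deficient arrays, where 53.3% of all genes were higher. The median differences were -0.16 and -0.21. Mean differences of these markers were -0.38 and -0.46 in pair 3, against -0.16 and -0.11 in pair 1 and -0.07 and -0.02 in pair 2. Their part in the values of Bcl3, whose difference was largest in pair 3, was not tested.

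**Figure D2:**
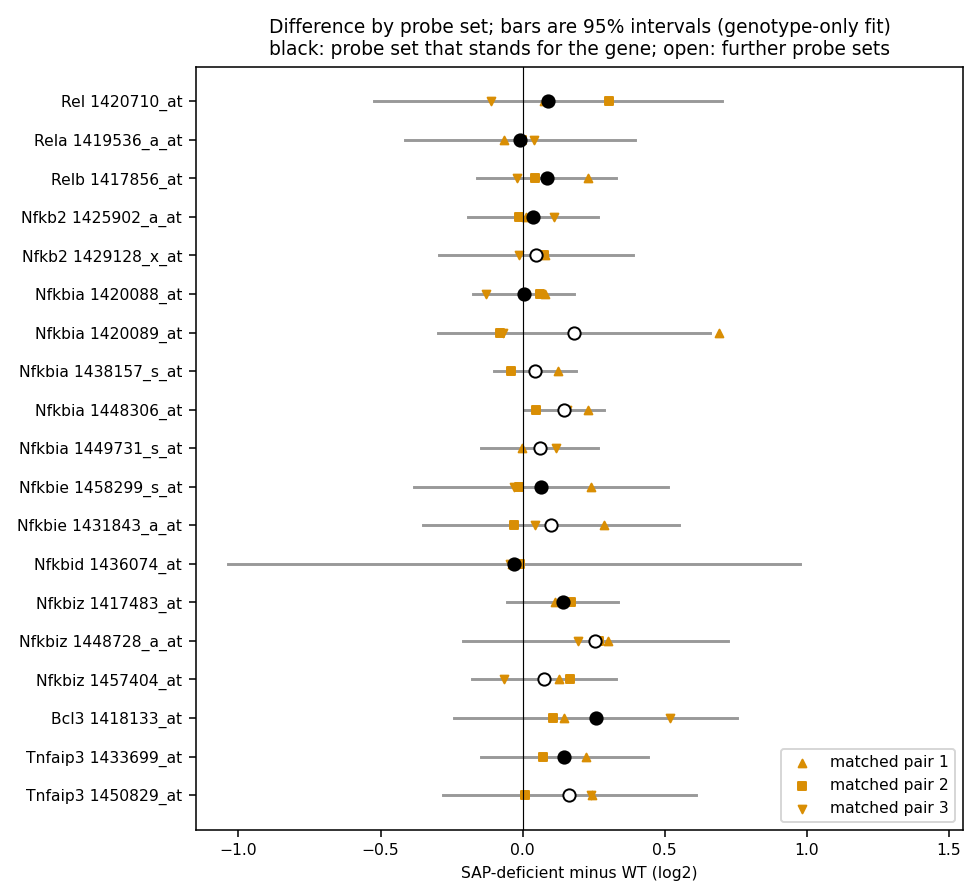
SAP-deficient minus WT difference (log2) of the 19 probe sets of the 10 NF-κB genes, with 95% intervals of the genotype-only fit; black circles mark the probe set that stands for a gene, open circles further probe sets, and orange symbols the differences within matched pairs. All intervals but that of 1448306_at (Nfkbia) include 0, and the interval of Nfkbid is the widest although its pair differences are at most 0.05 in size.

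Compared with genotype, the matched pairs held most of the variation of these genes. The share of a gene's variance between pairs was 99.9% for Nfkbid, 99.1% for Rela, 92.8% for Rel, 91.6% for Nfkbie and 89.4% for Nfkb2. Its median was 84.1% over the 10 genes and 66.9% over all genes. High shares were not particular to the 10: the median was 85.6% over 65 other pathway genes, 92.7% over CD4 T cell and 90.7% over Tfh markers. Lower medians were found for B cell (53.6%), MHC class II (58.1%) and macrophage and dendritic cell markers (64.2%). Among the 10, the share was 46.2% for Nfkbiz, the 1 gene in which genotype held more (52.4%), and 47.3% for Relb. The range between pair means exceeded the median of all genes (0.23) in 6 of the 10. Only 0.775% of all genes had a range as large as that of Nfkbid (1.47), and 4.87% one as large as that of Rel (0.85). Bcl3 (0.60), Nfkbie (0.57), Rela (0.50) and Tnfaip3 (0.34) followed, while Nfkb2 (0.22), Nfkbia (0.18), Nfkbiz (0.16) and Relb (0.14) lay under that median. In 5 of the 10 genes, Nfkb2, Rel, Nfkbid, Nfkbie and Bcl3, the pairs were fully apart, so that both arrays of a pair lay above both arrays of the next. This was so for 25.2% of all genes, 43.1% of the 65 other pathway genes, 37.5% of the CD4 T cell markers and 66.7% of the Tfh markers. It held for 22.2% of the B cell, 33.3% of the MHC class II and 22.2% of the macrophage and dendritic cell markers.

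**Figure D3:**
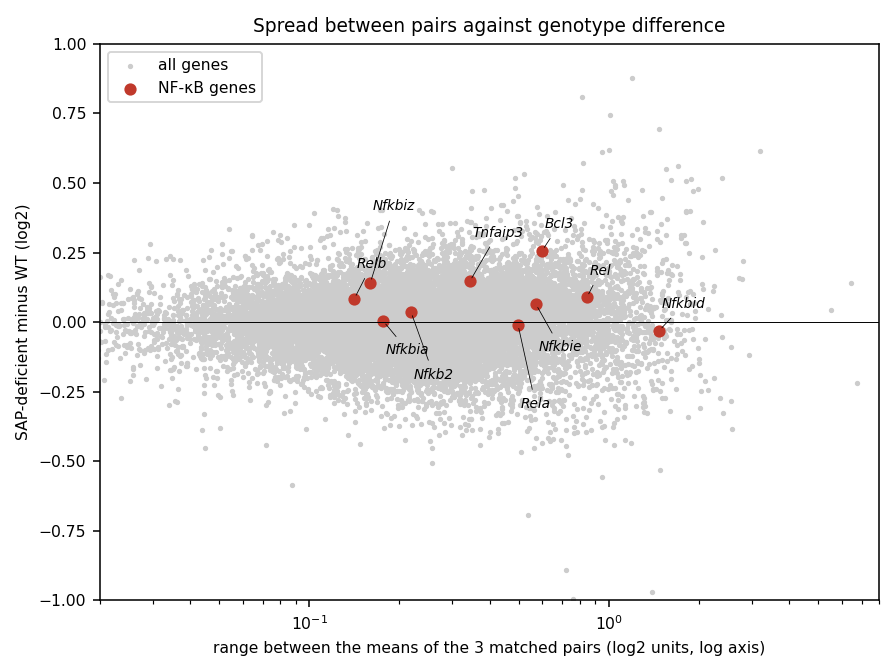
Genotype difference (SAP-deficient minus WT, log2) against the range between the means of the 3 matched pairs (log2 units, logarithmic axis), with 1 point per gene; NF-κB genes are red and named. The 10 genes lie within -0.03 to 0.26 on the vertical axis and from 0.14 (Relb) to 1.47 (Nfkbid) on the horizontal one; 1 gene (Sh2d1a) lies beyond the vertical range and 127 genes with a range under 0.02 lie to the left.

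The genes did not move together across the pairs. The mean was lowest in pair 2 for 6 of them: Rel, Rela, Relb, Nfkbid, Nfkbiz and Tnfaip3. Nfkb2, Nfkbie and Bcl3 had theirs in pair 3 and Nfkbia in pair 1. Over the 6 arrays, Pearson's r was 0.94 between Rel and Nfkbid and between Rela and Nfkbid, 0.87 between Nfkb2 and Nfkbie, and 0.86 between Nfkb2 and Bcl3. It was -0.94 between Nfkbid and Nfkbie, -0.91 between Nfkb2 and Rel and -0.91 between Rel and Nfkbie. These 7 are the extremes of 45 correlations. They are descriptions over 6 arrays that fall into 3 pairs, so they rest on little more than 3 separate levels.

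The mean of genes switched on early by the T cell receptor had the same order across the pairs as Nfkbid and Rel, highest in pair 3 and lowest in pair 2. So did 8 of the 12 genes singly, the others being Jun, Ier2, Nr4a2 and Egr3. The share of all genes with this order was not counted, so the count of 8 has no yardstick. Relb, Nfkbiz and Tnfaip3 also had the order, as did Cd3d, Il2 and Tnf. Nfkb2, Rela, Nfkbia, Nfkbie and Bcl3 did not. The 12 genes of this list (Nr4a and Egr genes, Cd69 and AP-1 genes among them) lay on average 0.09 above their own means in pair 1, 0.48 below in pair 2 and 0.39 above in pair 3. Nr4a3 and Junb were its brightest genes. Nr4a3, an orphan nuclear receptor gene, was at 12.37, 11.34 and 12.72 in SAP-deficient arrays, against 12.33, 11.17 and 12.90 in WT arrays. Over the 6 arrays the list's mean correlated with Nfkbid at 0.998, with Rel at 0.96 and with Rela at 0.93, and with Nfkbie at -0.94 and Nfkb2 at -0.86. As above, these values compare 3 pairs and come with no test. Between genotypes the list had 7 of 12 genes higher, a median difference of 0.01 and no call.

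**Figure D4:**
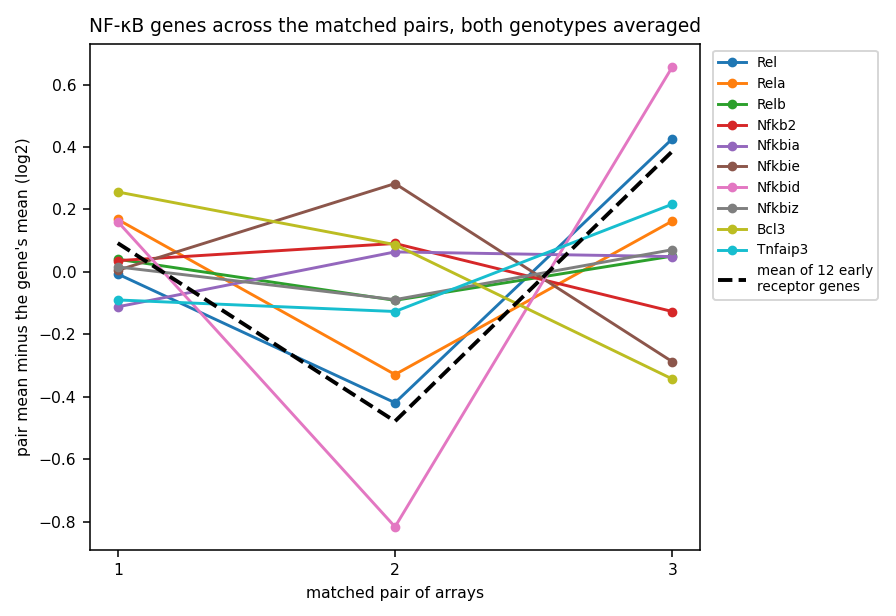
Mean of each matched pair minus the gene's mean over the 6 arrays (log2), both genotypes averaged, for the 10 NF-κB genes (solid lines) and for the mean of 12 early T cell receptor genes (dashed). Nfkbid, Rel and Rela are lowest in pair 2 with the early receptor genes, while Nfkbie and Nfkb2 are highest there.

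Other genes of the pathway were taken from 5 lists, of whose 72 genes 65 were measured. None of the 65 was called (limma), 45 were higher on average (53.3% of all genes were) and the median difference was 0.03. The blocked fit gave 11 of the 65 an unadjusted p under 0.05 (8 of them higher, 3 lower), where 6.1% of all genes passed (3.49% higher, 2.61% lower), and called none. The lists were chosen with earlier results known, so nothing about them as lists is read from these counts. Of 4 measured genes on a list of further NF-κB genes, none of them a subunit gene, 2 were higher. Nfkbib, the gene of IκBβ, was at -0.05 ± 0.11 and Nfkbil1 at 0.09 ± 0.17. Nkap and Nkrf, a repressor, were at -0.005 ± 0.12 and 0.05 ± 0.11. The subunit gene Nfkb1 was also on this list, but it was not among the genes measured and has no value here.

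On the path from the T cell receptor and CD28 to IKK, 6 of the 12 genes measured were higher, with a median of -0.01. The costimulatory receptor gene Cd28 was at 12.10, 11.60 and 11.44 in SAP-deficient arrays, against 12.25, 11.93 and 11.73 in WT arrays. Each SAP-deficient array was under its matched WT array, by 0.15, 0.33 and 0.29 in size, while the groups overlapped (difference -0.25 ± 0.18, limma adjusted p = 0.379 in the blocked fit). Malt1, encoding a paracaspase that acts upstream of IKK, was at -0.08 ± 0.16, and the IKK kinase gene Ikbkb at 0.09 ± 0.10. Tab3, an adaptor of the kinase TAK1, was at 0.17 ± 0.11.

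Of the TNF receptor and non-canonical arm, 11 of 14 genes were higher and the median was 0.04. Ltb, encoding lymphotoxin β and itself an NF-κB target, was at 11.79, 11.51 and 11.76 in SAP-deficient arrays, against 11.32, 11.44 and 11.40 in WT arrays. The groups did not overlap, and among the 65 it alone had an unadjusted p under 0.05 without the block, where 1.31% of all genes had one (difference 0.30 ± 0.09, limma adjusted p = 1.00, and 0.596 with the block). The adaptor gene Traf1 was at 0.14 ± 0.08, with SAP-deficient arrays higher in all pairs. The receptor genes Tnfrsf9 (4-1BB) and Tnfrsf1b were at -0.05 ± 0.06 and -0.04 ± 0.30.

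Ubiquitin-editing and other brakes had 10 of 12 genes higher and a median of 0.05. Zc3h12a, encoding the RNase Regnase-1 that degrades inflammatory transcripts, was at 0.19 ± 0.15, higher in all pairs. The A20-binding genes Tnip1 and Tnip2 were at 0.10 ± 0.29 and -0.002 ± 0.16, and Otud7b at -0.003 ± 0.13.

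Of the genes known as NF-κB targets in T cells, 16 of 23 were higher, with a median of 0.04. The stress-response gene Gadd45b was at 0.26 ± 0.15 and the survival gene Ier3 at 0.25 ± 0.36, both higher in every pair (blocked limma adjusted p = 0.456 and 0.403). Ebi3, encoding a subunit of IL-27 and IL-35, was at -0.28 ± 0.21 and Cd40lg at -0.21 ± 0.65. Ebi3 was at 8.87, 8.74 and 8.06 in SAP-deficient arrays, against 8.87, 8.89 and 8.74 in WT arrays, so that pair 3 made most of its difference. Cd40lg, the ligand through which helper T cells activate B cells, had the pattern of Nfkbid, with 8.82, 7.18 and 9.13 in SAP-deficient arrays, against 8.93, 7.29 and 9.54 in WT arrays.

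**Figure D5:**
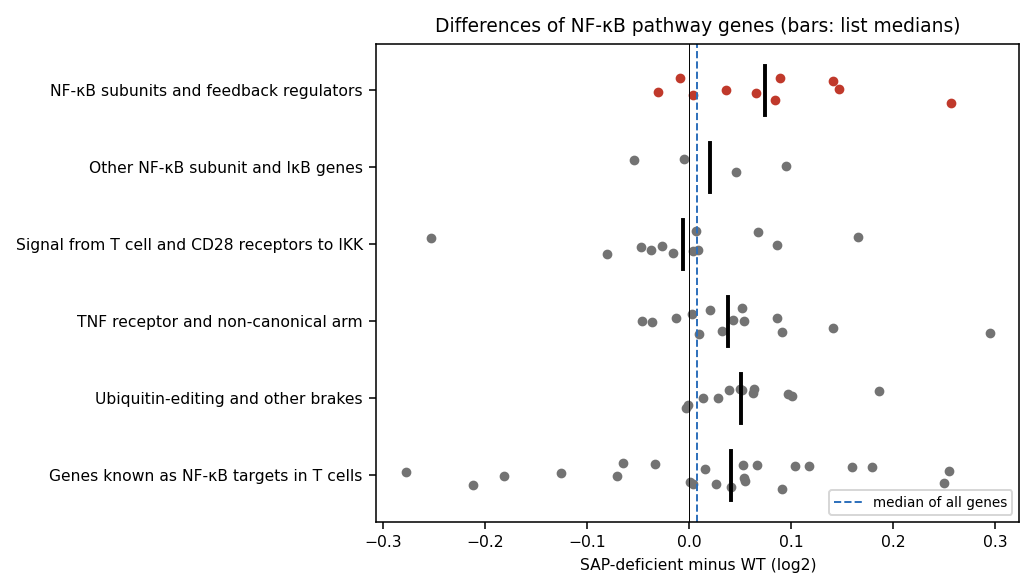
SAP-deficient minus WT difference (log2, genotype-only fit) of each measured gene of the NF-κB pathway lists, with 1 point per gene and black bars at the list medians; the dashed line is the median of all genes (0.01). The list medians run from -0.01 to 0.07, and no gene of any list was called.

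The 5 genes whose centred profile over the 6 arrays lay nearest to the average of the 10 NF-κB genes, among 4540 other genes with a mean level at or above the 75th percentile, were Fam98a, Dctn3, Cd47, Ppcdc and Elovl1. Their distances (root mean square, log2) were 0.0082, 0.017, 0.020, 0.023 and 0.024, with Pearson's r from 0.97 to 0.998. Cd47, which encodes a surface protein known as an inhibitor of phagocytosis, was at 12.72, 12.50 and 12.74 in SAP-deficient arrays, against 12.65, 12.46 and 12.71 in WT arrays. The average profile itself was shallow, from -0.10 to 0.12 in SAP-deficient arrays and from -0.17 to 0.06 in WT arrays, with members of opposite pair patterns entering it.

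Markers of the splenocytes added to the culture were present at low to moderate levels. Of 9 measured B cell markers, 5 had mean levels under the median of all probe-set means, Ebf1 and Cd79b were the brightest, and the list's mean level was 5.41 to 5.67 in SAP-deficient arrays and 5.60 to 5.83 in WT arrays. MHC class II genes (6 measured) averaged 7.78 to 8.27 in SAP-deficient arrays and 8.07 to 8.38 in WT arrays, with Cd74 and H2-Ab1 the brightest. Macrophage and dendritic cell markers (9 measured, 3 under that median, Cd68 and Lyz2 the brightest) averaged 5.87 to 6.30 in SAP-deficient arrays and 5.97 to 6.26 in WT arrays. Such cells also express NF-κB genes, and their part in the levels given here was not tested.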

How the data were processed

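The authors deposited 1 table of log2 values, with 45101 probe sets and 1 column for each of 6 Affymetrix mouse arrays. Affymetrix Expression Console and RMA are named in the submitters' processing notes. RMA corrects background, equalises array distributions and summarises probes on the log2 scale. No version or build was found in those sources. RMA understates differences of dim probe sets; the number of arrays limits the precision. The median of an array was 5.73 to 5.77. At most 63 values were equal between any 2 arrays.

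The 64 control probe sets were left out. By the platform annotation 34945 probe sets name a single gene (34741 found in RefSeq), 932 name more and 9160 are unnamed. Limma (version 3.58.1, R 4.3.3) was fitted to all 45037 probe sets on genotype (lmFit, eBayes with trend), and p-values were adjusted by Benjamini-Hochberg over the 18193 genes or over probe sets, with calls under 0.05. The blocked fit adds the matched pairs. Differences are SAP-deficient minus WT. The fit was tested on simulated data, with the outcome not reported here. Alternatives changed the eBayes settings, the normalization, array weights, the probe sets used, the block and the arrays included. The members, lists and pairs were chosen with earlier results of these data known. Genes named are all members, called genes, the 2 highest and 2 lowest differences of each pathway list, the 2 brightest genes of marker lists and the 5 nearest profiles.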

Additional observations from a re-analysis of the deposited data

How the results depend on the processing

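Limits: 3 arrays a genotype, with pairs that the labels do not state, leave intervals of up to 2-fold in the genotype-only fit, and RMA hides any change in total RNA. No member was called under any alternative; its adjusted p (limma) was 0.6675 or higher throughout. The signs of Relb, Nfkbiz, Bcl3 and Tnfaip3 held in all 18 alternatives. Several of these leave the differences of these genes unchanged, so the count overstates how far the signs were tried. They are the eBayes settings, leaving out probe sets under the median or _x_at and _s_at probe sets, and the block with all pairs. Leaving out 1 array unbalances the pairs. The differences then ran from -0.045 to 0.094 for Nfkb2, -0.071 to 0.062 for Nfkbia, -0.44 to 0.37 for Nfkbid, -0.057 to 0.23 for Nfkbie, -0.17 to 0.35 for Rel, -0.18 to 0.15 for Rela, 0.03 to 0.14 for Relb, 0.09 to 0.18 for Nfkbiz, 0.02 to 0.41 for Bcl3 and 0.04 to 0.26 for Tnfaip3, and from 0.03 to 0.17 for the median of the 10. Array weights turned Nfkbid to 0.15 and Rela to 0.039, and median centring Rela to 0.0004. In the blocked fit, leaving out each pair was added after seeing the data: Nfkbia turned to -0.034 without pair 1 and -0.025 without pair 2, Nfkbie to -0.023 and Rela to 0.020 without pair 1, and Rel to -0.018 without pair 2. The cause was not tested.

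Limma called 0 genes (239 at an unadjusted p under 0.05) and 0 probe sets (739). It called 1 gene with robust variance, without _x_at and _s_at probe sets, or with the replicate block, and 0 to 1 gene and 0 probe sets when 1 array was left out (1 without WT replicate 2). With the replicate block 1 probe set was called. Without pair 1, 2 or 3 the blocked fit called 3, 1 and 36 genes and 6, 3 and 40 probe sets. Replicate numbers were given in accession order within each genotype and are not in the labels, so the pairing rests on the likeness of the arrays.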

Other observations

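Besides Ltb, 2 further genes of the pathway lists had genotypes that did not overlap, 3 of 65 in all (2.38% of all genes had all SAP-deficient arrays above all WT arrays and 2.94% all below); they were singled out after their values were seen. Tab3 was at 8.72, 8.78 and 8.74 in SAP-deficient arrays, against 8.60, 8.56 and 8.59 in WT arrays, and its pair means differed by only 0.01. Plau, the gene of urokinase, was at 4.833, 4.841 and 4.998 in SAP-deficient arrays, against 4.9995, 5.040 and 5.010 in WT arrays, at a level under the median of all probe-set means. Neither was called (limma).

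The cytokine genes Il2 and Csf2, both NF-κB targets in T cells, varied more between the pairs than between the genotypes; they too were chosen after their values were seen. Il2 was at 13.88, 13.32 and 13.89 in SAP-deficient arrays, against 13.82, 13.34 and 13.92 in WT arrays, a difference of 0.00 ± 0.19. Csf2 was at 13.21, 12.84 and 13.46 in SAP-deficient arrays, against 12.98, 12.71 and 13.51 in WT arrays (0.10 ± 0.21). Tnip1, by contrast, was highest in pair 2, at 10.44, 11.10 and 10.33 in SAP-deficient arrays, against 10.26, 11.15 and 10.16 in WT arrays, the same order as Nfkbie.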
